A study of Mus musculus with 15 samples.

Results

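The mitochondrial ribosomal protein genes of the mouse kidney were followed from 3 to 24 months of age. They were taken as the genes whose symbol begins with Mrpl or Mrps followed by a digit, leaving out pseudogenes, and they were 78 of the 33058 genes that had an expression value, 49 named Mrpl and 29 named Mrps. The value of a gene was the summed FPKM (sequenced fragments scaled to transcript length and to the size of the library) of its annotated transcripts and of the transcripts assembled from the reads on the same strand, which for these genes were 313 and 62. Whole kidneys of 15 male C57BL/6 mice (the strain as labelled, C57BL/6J in the study's methods) were sequenced, 5 mice at each of 3, 12 and 24 months, fed standard chow and with no other treatment in the labels. Each mouse gave its own library of total RNA after removal of ribosomal RNA, per the labels, whereas the study's methods describe oligo(dT) purification. The titles of all samples begin with 3M, and the age of each mouse was taken from the age label. A difference between ages was called at a Benjamini-Hochberg adjusted p under 0.05 over all genes tested (limma on log2(FPKM + 1)), and every log2 fold change of a gene given here is of FPKM + 1, so that changes of weakly expressed genes appear smaller than they are.

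Mitochondria carry their own ribosome, the mitoribosome, which translates the few messenger RNAs of the mitochondrial genome into core subunits of the respiratory chain and of ATP synthase. Its RNA comes from the mitochondrial genome, while all of its proteins are encoded in the nucleus, made in the cytosol and imported. The small subunit reads the messenger RNA and the large subunit joins the amino acids, and both hold proteins with relatives in bacterial ribosomes beside proteins found only in mitochondria. The kidney tubule, above all the proximal tubule, is rich in mitochondria because salt and solute reabsorption consumes much ATP.

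The libraries held between 5.03 and 8.03 Gb of aligned bases, of which between 68.8% and 71.2% lay on the listed transcripts, and the 3-month-old libraries were between 5.03 and 6.13 Gb. Transcripts of the mitochondrial genome were not analysed here. The 5 proximal tubule markers summed to between 1391 and 1917 FPKM per mouse and the 2 thick ascending limb markers to between 877 and 1181 FPKM in the 15 mice, whereas both skeletal muscle markers together stayed at or under 0.0710 FPKM. The 5 immune markers summed to between 65.6 and 222 FPKM at 3 months, between 158 and 487 FPKM at 12 months and between 187 and 273 FPKM at 24 months. The 3 collecting duct markers summed to between 45.9 and 192 FPKM at 3 months, between 38.8 and 56.0 FPKM at 12 months and between 30.5 and 65.6 FPKM at 24 months. The part of either cell type in the results given here was not tested. In whole tissue, fewer cells of a type and less RNA per cell cannot be told apart.

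All 78 genes had a mean of at least 1 FPKM over the 15 mice, and 76 were above 0 in every mouse. Their mean levels ran from 1.34 to 27.7 FPKM with a median of 7.35 FPKM, 24 of them above 10 FPKM and 10 below 3 FPKM. The median of the mean levels was 6.95 FPKM for the genes named Mrpl and 7.99 FPKM for those named Mrps. The highest were Mrpl24, a large subunit protein with a bacterial relative, at 27.7 FPKM, Mrps6 at 23.2 FPKM, Mrps18b at 22.1 FPKM, Mrpl4 at 21.03 FPKM and Mrpl12 at 20.9 FPKM. The lowest were Mrps14 and Mrpl35, which both have bacterial relatives, at 1.34 and 1.997 FPKM, and Mrps26 at 2.09 FPKM. Transcripts of genes named for proteins of one ribosome were thus listed over a wide range of levels per length. The set was made by name alone, and whether each protein is part of the ribosome was not checked. The value of Mrps6 is taken up separately because almost all of it comes from assembled transcripts. The genes lay on 17 chromosomes, 11 of them on chromosome 11, 8 on chromosome 17 and 7 on chromosome 6.

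**Figure D1:**
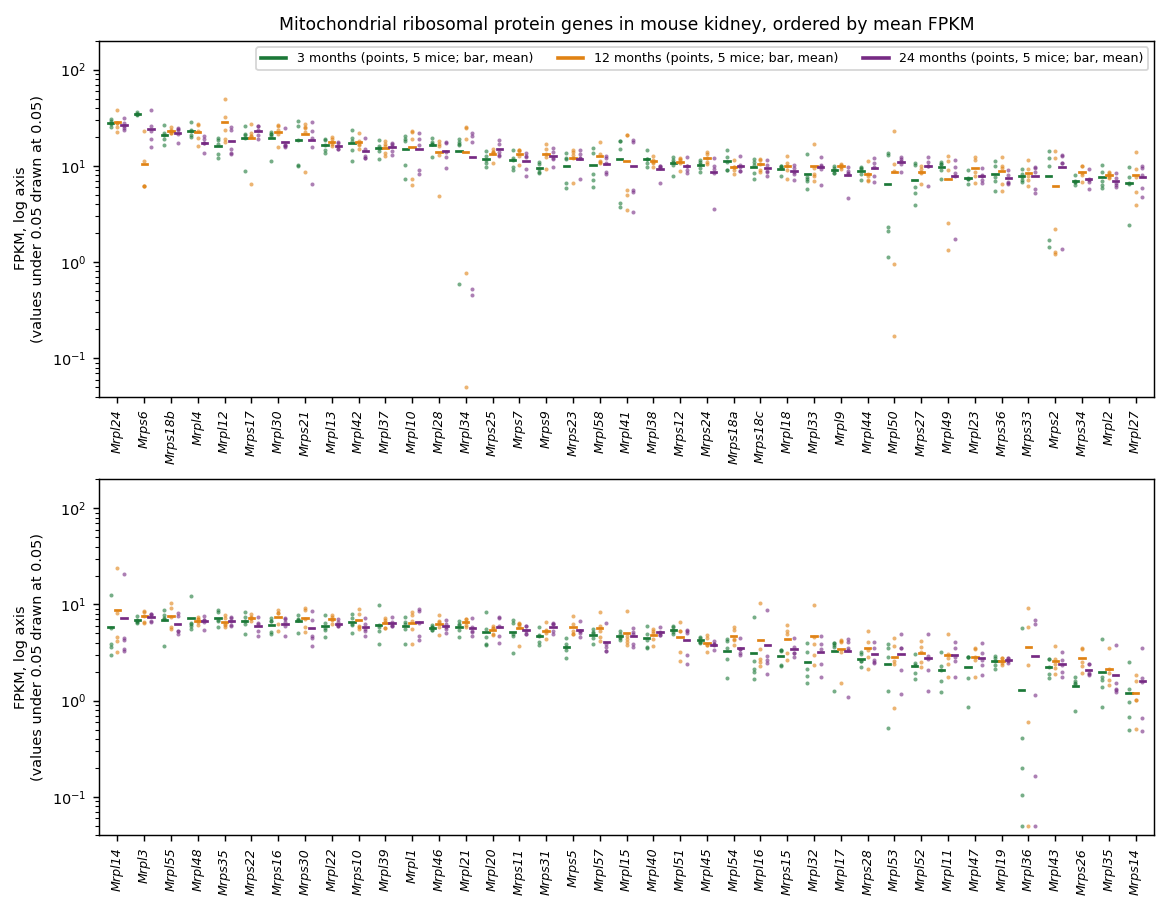
FPKM (log axis) of the 78 mitochondrial ribosomal protein genes, ordered by their mean over 15 mice, with 1 point per mouse coloured by age (3, 12 or 24 months). The means run from 27.7 FPKM for Mrpl24 to 1.34 FPKM for Mrps14, and a few genes, such as Mrpl34 and Mrpl36, have mice that are far apart within 1 age.

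The 78 genes held together between 0.281% and 0.325% of all FPKM in each library. Their FPKM summed to 675.1 ± 43.5 (SD, n = 5) at 3 months, 718.5 ± 47.7 at 12 months and 672.3 ± 35.4 at 24 months, and the single mice of the 3 ages overlapped, from 628.9 to 744.8, from 656.0 to 784.4 and from 630.2 to 707.1. With Mrps6 included, the mean summed levels thus differed between ages by about the SD between mice or less. These sums include Mrps6, which is taken up separately below. Its mean was 34.7 FPKM at 3 months, 10.6 FPKM at 12 months and 24.3 FPKM at 24 months, lowest at the age with the highest sum. Without Mrps6 the mean sum at 12 months therefore stands further above those of the other ages. The SD of sums without it was not computed, so the statement on the SD covers only the sums with Mrps6.

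Old against young kidneys were compared first. Between 24 and 3 months 0 of the 78 genes were called in either direction, where 319 of 31755 genes tested (1.0%) were called higher and 67 (0.211%) lower. At an unadjusted p under 0.05, 5 genes were higher and 3 lower, against 11.4% and 3.47% of all genes tested and 12.4% and 6.35% of the 13360 genes with a mean of at least 1 FPKM over the 10 mice compared. For the mitochondrial ribosomal protein genes these counts are 6.41% and 3.85%, both below the shares of genes of like level. Their fold changes were centred near 0: 42 were positive and 36 negative, 53.8% positive against 58.3% of the genes with a mean of at least 1 FPKM, and the median was 0.041 against 0.051. Without 24-month replicate 35 the count of 5 was 2, and without 3-month replicate 8 the median was −0.003. The 5 genes at an unadjusted p under 0.05 and higher at 24 months were all named Mrps, 5 of 29, and the 49 genes named Mrpl gave 0 higher and 2 lower. The split between proteins listed with a bacterial relative and the others gave 2 higher and 2 lower of 44, and 3 higher and 1 lower of 34. Mrps18a and Mrps18b, which share an ancestor with bacterial S18, were counted among the 34.

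**Figure D2:**
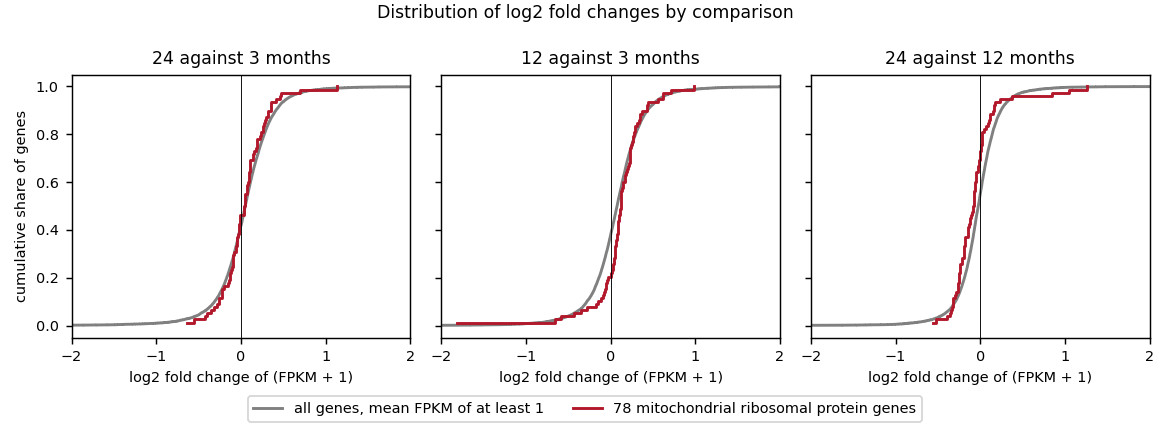
Cumulative share of genes (vertical axis) at or below a log2 fold change of FPKM + 1 (horizontal axis) for each pair of ages, with the 78 mitochondrial ribosomal protein genes in red and all genes with a mean of at least 1 FPKM in grey. The red curve lies on the grey one near 0 for 24 against 3 months (medians 0.041 and 0.051), to its right for 12 against 3 months (0.120 and 0.076) and to its left for 24 against 12 months (−0.079 and −0.024).

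Mrps5, the small subunit protein related to bacterial S5, was the gene with the smallest p between old and young mice. Its FPKM was 2.75, 3.87, 4.53, 3.34 and 3.66 in the 3-month-old mice, 5.30, 4.94, 6.33, 4.89 and 7.60 in the 12-month-old mice and 6.80, 4.65, 5.32, 5.35 and 5.04 in the 24-month-old mice. Every mouse of 12 or 24 months was above every mouse of 3 months. The log2 fold change was 0.48 (SE 0.12) at 24 months (limma adjusted p = 0.0999) and 0.55 (SE 0.14) at 12 months (limma adjusted p = 0.118), both short of a call, and the exact permutation test of this gene alone gave the smallest p it allows, 0.0079, in both comparisons. That exact p follows from the lack of overlap, in a gene named for its small p, and is no separate support.

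Mrps26, a mitochondrion-specific protein of the small subunit and one of the 3 lowest genes, was listed at 1.61, 1.53, 1.75, 1.51 and 0.787 FPKM at 3 months, at 2.31, 1.96, 3.42, 2.55 and 3.51 FPKM at 12 months and at 1.93, 2.41, 1.88, 1.83 and 2.40 FPKM at 24 months. Again no older mouse overlapped the young mice, although at 24 months the lowest was only slightly above the highest young mouse. The log2 fold change was 0.35 (SE 0.14) at 24 months (limma adjusted p = 0.26) and 0.62 (SE 0.16) at 12 months (limma adjusted p = 0.137). Mrps5 and Mrps26 were the 2 genes whose mice of 3 and 24 months did not overlap with the older mice higher, and 0 did so in the other direction, against 4.47% and 1.89% of the genes with a mean of at least 1 FPKM.

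Mrps9, the relative of bacterial S9, stood at 9.31, 8.54, 8.48, 10.9 and 10.5 FPKM at 3 months, at 13.3, 9.32, 16.9, 12.3 and 15.1 FPKM at 12 months and at 15.4, 11.7, 9.84, 14.1 and 12.1 FPKM at 24 months. Most older mice were above the young ones, with 1 mouse of each older age inside the young range. The log2 fold change was 0.36 (SE 0.12, limma adjusted p = 0.193) at 24 months and 0.43 (SE 0.14, limma adjusted p = 0.22) at 12 months. Mrps25, a mitochondrion-specific protein, had 9.79, 10.7, 11.6, 14.2 and 12.7 FPKM at 3 months and 13.0, 12.7, 18.7, 14.0 and 16.9 FPKM at 24 months, which overlap (log2 fold change 0.32, SE 0.13, limma adjusted p = 0.274). The fifth gene, the mitochondrion-specific Mrps31, named here after its values were seen, had 3.82 to 5.86 FPKM at 3 months and 4.95 to 6.37 FPKM at 24 months.

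In old mice 3 genes had lower values at an unadjusted p under 0.05. Mrpl4, a large subunit protein with a bacterial relative, had 21.2, 28.5, 23.6, 19.8 and 23.2 FPKM at 3 months and 19.005, 20.4, 17.2, 17.1 and 13.5 FPKM at 24 months, so that 1 old mouse lay inside the young range (log2 fold change −0.40, SE 0.12, limma adjusted p = 0.166). At 12 months Mrpl4 had 22.8, 15.985, 19.4, 27.1 and 26.7 FPKM, spread over both ranges. With annotated transcripts alone the difference between old and young mice was −0.21 at an unadjusted p of 0.365. Mrpl38, a mitochondrion-specific protein of the large subunit, had 11.8, 14.7, 9.70, 10.7 and 11.9 FPKM at 3 months and 10.1, 9.81, 9.45, 6.66 and 10.0 FPKM at 24 months, a difference of −0.32 (SE 0.13, limma adjusted p = 0.287) with overlapping mice. The third was Mrps6. Mrpl51, a mitochondrion-specific large subunit protein and the next in order, had a difference of −0.36 (SE 0.19, limma adjusted p = 0.424).

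**Figure D3:**
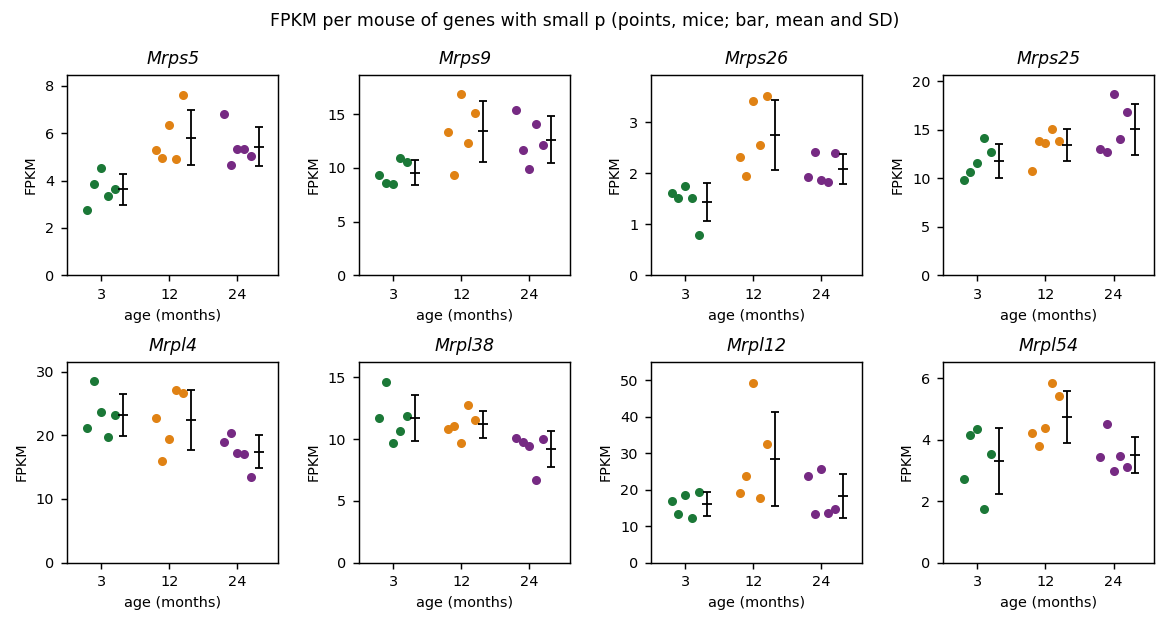
FPKM per mouse (points) at 3, 12 and 24 months for 8 genes with small p-values, with the mean and SD of 5 mice beside them. For Mrps5 and Mrps26 all mice of 12 and 24 months are above all mice of 3 months, Mrpl4 and Mrpl38 are lowest at 24 months with overlap, and Mrpl12 is spread from 17.6 to 49.1 FPKM at 12 months.

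The upstream sequences of Mrps5, Mrps9 and Mrps26, whose values were higher in both older groups, and of Mrps6 are shown because these 4 genes lead the comparisons. The sequences are those of RefSeq on GRCm38.p6 and run from 250 bases before to 50 bases after the annotated start, and 69 of the 78 genes were matched in that table. Capitals mark matches, on either strand and with overlaps allowed, to the letters GCGC, 1 base of any kind and TGCGC for the factor NRF1, CCGGAAG for ETS factors such as GABPA, and AAGATGGC for YY1, all known as regulators of nuclear genes for mitochondria.
Mrps5 promoter, chr2:127587176-127587475, plus strand: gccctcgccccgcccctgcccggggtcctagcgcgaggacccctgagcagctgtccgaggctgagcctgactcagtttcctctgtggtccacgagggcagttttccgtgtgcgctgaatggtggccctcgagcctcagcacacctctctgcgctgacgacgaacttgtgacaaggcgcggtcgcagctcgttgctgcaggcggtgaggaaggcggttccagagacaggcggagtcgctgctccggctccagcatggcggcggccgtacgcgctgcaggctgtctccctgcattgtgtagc
Mrps9 promoter, chr1:42850983-42851282, plus strand: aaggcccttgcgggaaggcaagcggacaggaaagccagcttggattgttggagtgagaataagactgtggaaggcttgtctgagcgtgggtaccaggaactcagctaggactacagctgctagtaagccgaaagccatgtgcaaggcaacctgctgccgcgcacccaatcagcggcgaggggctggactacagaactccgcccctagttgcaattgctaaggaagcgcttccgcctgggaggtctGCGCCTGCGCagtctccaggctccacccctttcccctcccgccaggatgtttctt
Mrps26 promoter, chr2:130563507-130563806, plus strand: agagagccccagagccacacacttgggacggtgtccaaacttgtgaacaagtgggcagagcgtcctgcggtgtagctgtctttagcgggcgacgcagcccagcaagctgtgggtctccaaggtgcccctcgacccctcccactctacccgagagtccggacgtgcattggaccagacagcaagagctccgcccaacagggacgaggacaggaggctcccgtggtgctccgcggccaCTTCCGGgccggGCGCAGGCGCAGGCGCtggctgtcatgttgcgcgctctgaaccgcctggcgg
Mrps6 promoter, chr16:92058086-92058385, plus strand: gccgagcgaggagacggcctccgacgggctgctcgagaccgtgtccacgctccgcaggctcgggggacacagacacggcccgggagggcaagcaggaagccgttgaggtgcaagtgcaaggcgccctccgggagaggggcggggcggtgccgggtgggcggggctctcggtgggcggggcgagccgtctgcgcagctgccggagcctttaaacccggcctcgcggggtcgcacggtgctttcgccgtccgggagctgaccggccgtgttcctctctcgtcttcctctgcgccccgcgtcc
The window of Mrps9 holds 1 NRF1 match that begins 5 bases before the start, and that of Mrps26 holds 1 ETS match and 2 NRF1 matches that overlap each other. The windows of Mrps5 and Mrps6 hold none of these letters, and the first annotated base of Slc5a3, at position 92058322, lies inside the window of Mrps6. Over the matched genes, NRF1 letters were found in a window of 13 of 69 genes (18.8%) against 5.19% of all 27025 symbols, a few of which have several windows, ETS letters in 26 (37.7%) against 9.93%, and YY1 letters in 12 (17.4%) against 3.19%. At least 1 of the 3 motifs was found for 43 of 69 genes (62.3%) against 16.4%. The symbols compared were not limited to genes expressed in the kidney, and the base composition of the windows was not compared. A match is a description of the letters and no evidence of binding.

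Each gene value sums transcripts of different kinds, which were also followed separately with the transcript types of GENCODE M21. How the assembler divides reads between overlapping transcripts sets each value, so transcripts of 1 gene are not independent measurements. In Mrps5 the 2 protein-coding transcripts had 1.94 ± 0.66 FPKM (SD, n = 5) at 3 months, 3.398 ± 1.02 at 12 months and 2.43 ± 0.46 at 24 months, and the 5 transcripts with a retained intron had 1.69 ± 0.47, 2.41 ± 0.73 and 3.00 ± 0.58 FPKM. Between 24 and 3 months the retained-intron transcripts thus had the larger difference, 0.58 (exact permutation p = 0.0079), while that of the coding transcripts was 0.24 (exact permutation p = 0.190). In Mrps9 the coding transcript had 4.71 ± 1.24, 6.42 ± 1.98 and 4.02 ± 1.21 FPKM, a difference of −0.19 between 24 and 3 months (exact permutation p = 0.389). Its 3 retained-intron transcripts had 2.47 ± 1.36, 4.64 ± 3.48 and 5.41 ± 2.09 FPKM (0.91, exact permutation p = 0.0556). The gene sum of Mrps9 and its coding transcript therefore point in opposite directions between old and young mice. In Mrps26 the coding transcript had 1.003 ± 0.38, 1.86 ± 0.36 and 1.33 ± 0.33 FPKM and the retained-intron transcript 0.432 ± 0.247, 0.889 ± 0.364 and 0.763 ± 0.252 FPKM. Mrps25 was different, since its single coding transcript held 90.9% of the gene and had 10.2 ± 0.99, 12.9 ± 1.49 and 13.6 ± 1.64 FPKM, with no overlap between 24 and 3 months (0.38, exact permutation p = 0.0079). With coding transcripts alone, 1 gene in place of 5 was higher at 24 months at an unadjusted p under 0.05, and it was Mrps25.

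Over all 78 genes, retained-intron transcripts held between 4.40% and 5.24% of the FPKM in the 3-month-old mice, between 4.69% and 5.60% in the 12-month-old mice and between 5.52% and 7.23% in the 24-month-old mice. The old and the young mice did not overlap in this share, whereas over all genes the same share was between 4.98% and 5.99% at 3 months and between 5.34% and 5.82% at 24 months and overlapped. Without Mrps5, Mrps9 and Mrps26 the shares were between 3.85% and 4.83% at 3 months and between 4.35% and 6.26% at 24 months, which overlap. Retained-intron transcripts were listed for 41 of the genes and had a higher mean at 24 than at 3 months in 28 of them (68.3%), against 59.8% of 7717 genes. No test was made of these shares. In tests transcript by transcript, 0 of 370 transcripts of these genes were called by limma between 24 and 3 months, where 6 of 107821 (0.00556%) were called, and 13 (3.51%) were higher and 8 (2.16%) lower at an unadjusted p under 0.05 against 5.81% and 2.59% of all transcripts tested.

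The 12-month-old mice lie between the ages the study compared. Between 12 and 3 months 62 of the 78 genes (79.5%) had a positive fold change, against 62.1% of the genes with a mean of at least 1 FPKM, and the median was 0.120 against 0.076. With each mouse centred on the median of those genes the median of the mitochondrial ribosomal protein genes was 0.039. Without centring, the median of 0.120 was 0.080 when 3-month replicate 8 was left out. Measured from each gene's own mean over 15 mice, the median gene of the set was above 0 in each 12-month-old mouse, between 0.024 and 0.200, and between −0.162 and 0.062 in the 3-month-old mice. The same quantity over all genes also differed between these ages, from 0.021 to 0.091 and from −0.084 to −0.0050. By limma 0 of 78 genes were called, where 62 of 31637 (0.196%) were called higher and 17 (0.0537%) lower, and at an unadjusted p under 0.05 there were 7 higher and 1 lower against 11.4% and 2.90% of all genes tested and 13.6% and 4.86% of those with a mean of at least 1 FPKM. Without 12-month replicate 21 the 7 were 4. Between 24 and 12 months, a comparison that shares the 12-month-old mice, 21 of 78 (26.9%) were positive against 44.7%, the median was −0.079 against −0.024, 0 genes were called where 0 of 32282 (0%) were called higher and 1 (0.00310%) lower, and 1 gene was higher and 3 were lower at an unadjusted p under 0.05 against 3.07% and 3.36% of all genes tested and 3.50% and 4.97% of those with a mean of at least 1 FPKM. In 0 genes did the mice of 24 and 12 months not overlap, against 0.676% higher and 0.926% lower. The 3 lower genes were Mrpl54, Mrps22 and Mrpl38. That count was 1 without 12-month replicate 17, 5 without 12-month replicate 18, 6 without 24-month replicate 31 and 8 without 24-month replicate 32.

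Mrpl12, a large subunit protein with a bacterial relative that has also been reported to bind the mitochondrial RNA polymerase, had the largest difference among the 7 genes higher at 12 months. It had 16.8, 13.2, 18.6, 12.1 and 19.5 FPKM at 3 months, 19.02, 23.9, 49.1, 17.6 and 32.5 FPKM at 12 months and 23.8, 13.4, 25.6, 13.7 and 14.8 FPKM at 24 months. The 12-month replicates 19 and 21 were above every other mouse, and the rest overlapped the young range or lay just above it. The log2 fold change was 0.71 (SE 0.27, limma adjusted p = 0.272). Its coding transcript had 11.7 ± 6.44 FPKM at 3 months, 23.6 ± 11.6 at 12 months and 9.11 ± 5.79 at 24 months, and its other transcript, with no coding sequence annotated, 4.31 ± 3.70, 4.88 ± 2.18 and 9.15 ± 4.76 FPKM. The coding transcript differed by −1.32 between 24 and 12 months (exact permutation p = 0.0238). Mrpl54, a mitochondrion-specific protein, had 2.72, 4.17, 4.35, 1.74 and 3.52 FPKM at 3 months, 4.23, 3.81, 4.39, 5.84 and 5.41 FPKM at 12 months and 3.45, 4.49, 3.00, 3.48 and 3.11 FPKM at 24 months. It was highest on average at 12 months, with overlap at both sides (limma adjusted p = 0.334 against 3 months and 0.738 against 24 months). The remaining genes beside Mrps5, Mrps26 and Mrps9 were Mrps34, a mitochondrion-specific protein, and Mrps24, a relative of bacterial S3 named after its values were seen, and they had log2 fold changes of 0.26 and 0.23 at 12 months. Mrps22, a mitochondrion-specific small subunit protein, had 6.72 ± 1.25, 7.31 ± 0.47 and 6.01 ± 1.03 FPKM.

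Mrps6, the relative of bacterial S6, had the largest difference of all 78 genes. It had 36.1, 34.9, 34.3, 34.5 and 33.8 FPKM at 3 months, 23.1, 6.24, 6.16, 6.11 and 11.2 FPKM at 12 months and 15.8, 18.8, 25.8, 37.7 and 23.3 FPKM at 24 months. The young mice were within a narrow range, all 12-month-old mice were below them, and the old mice ran from below the highest 12-month-old mouse to above the young mice. The log2 fold change was −1.81 (SE 0.32) between 12 and 3 months (limma adjusted p = 0.0571), and −0.56 (SE 0.19) between 24 and 3 months (limma adjusted p = 0.207). The former was past the threshold without 12-month replicate 17 (limma adjusted p = 0.0049), with all 15 mice in 1 fit (0.0222) and over genes with a mean of at least 1 FPKM at either age (0.0392). It was the only gene of the set whose 12-month-old mice were all below the 3-month-old mice, against 1.26% of the genes with a mean of at least 1 FPKM, and Mrps5 and Mrps26 were the 2 in the other direction against 4.35%.

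Almost none of the value of Mrps6 came from its annotated transcript. The single annotated transcript summed (702 bases, chr16:92106261-92112227) had 0.91 ± 0.69, 0.88 ± 0.24 and 0.88 ± 0.55 FPKM at the 3 ages, and log2 differences of 0.0044 between 24 and 3 months (exact permutation p = 0.992) and 0.047 between 12 and 3 months (exact permutation p = 0.865). The other 96.2% of the FPKM was listed for 12 assembled transcripts of 4506 to 35871 bases, all of which begin between positions 92058283 and 92058717 and end at 92112214 or later. These spans enclose nearly all of Slc5a3 (chr16:92058322-92087473), the sodium/myo-inositol cotransporter gene. Which bases of Slc5a3 or of the Mrps6 coding sequence are in their exons was not examined. No transcript annotated as coding for Mrps6 was among those summed. Slc5a3 itself was listed at 3.54, 4.39, 2.72, 7.26 and 15.5 FPKM at 3 months, at 0.121, 28.1, 26.3, 35.2 and 3.18 FPKM at 12 months and at 1.13, 2.31, 5.11, 1.36 and 0.940 FPKM at 24 months. The 3 mice in which Slc5a3 was highest, 12-month replicates 18, 19 and 20, were the 3 in which Mrps6 was lowest. The sum of both genes was 41.4 ± 4.74 FPKM at 3 months, 29.1 ± 10.5 at 12 months and 26.5 ± 8.71 at 24 months. On that sum the difference between 12 and 3 months was −0.57 (exact permutation p = 0.0317) in place of −1.81, and that between 24 and 12 months was −0.11 (exact permutation p = 0.754) in place of 1.26. Between 24 and 3 months it was −0.68 (exact permutation p = 0.0159). How the assembler divided reads between the overlapping transcripts was not tested. The values of Mrps6 are therefore those listed for the region, and how much of them is coding messenger RNA cannot be told.

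**Figure D4:**
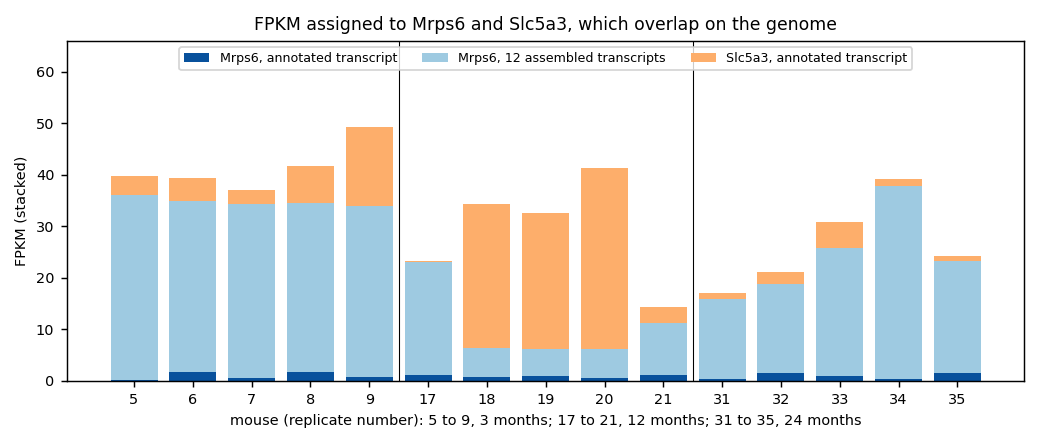
FPKM listed for the annotated Mrps6 transcript, for the 12 assembled transcripts under the Mrps6 name and for Slc5a3, stacked for each of the 15 mice. The annotated transcript stays between 0.138 and 1.65 FPKM, and the 12-month replicates 18, 19 and 20 have Slc5a3 at 26.3 to 35.2 FPKM with the Mrps6 gene at 6.11 to 6.24 FPKM.

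Mrpl32 and Mrps34 were, with Mrps6, the genes with the lowest share in coding transcripts. Mrpl32, a large subunit protein that is cut to its mature form inside mitochondria, had all of its FPKM in 1 transcript that is not annotated as coding, at 2.53 ± 1.02, 4.75 ± 3.02 and 3.22 ± 1.16 FPKM. The 1 coding transcript that GENCODE M21 gives for Mrpl32 was not listed, so its coding messenger RNA could not be followed. Mrps34 had 0.291% in its coding transcript and 72.2% in 3 assembled ones, at 6.97 ± 0.61, 8.60 ± 1.35 and 7.30 ± 1.30 FPKM. Of the coding transcripts that GENCODE M21 gives for the 78 genes, 157 of 170 were listed, and all of them for 69 genes.

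Several genes varied far more between mice of one age than between ages. The median SD of log2(FPKM + 1) within ages was 0.285 for the 78 genes, 0.247 for the 13446 genes with a mean of at least 1 FPKM and 0.238 for the 7575 genes between 2.72 and 17.7 FPKM, the 10th and 90th percentiles of the set. It was under 0.3 for 43 genes and above 1 for 5. Mrpl34, a large subunit protein with a bacterial relative, was the most variable, with 17.6, 0.595, 18.98, 16.4 and 16.99 FPKM at 3 months, 0, 19.1, 25.4, 0.774 and 24.8 FPKM at 12 months and 22.2, 20.4, 0.530, 0.453 and 17.6 FPKM at 24 months. It was either between 16.4 and 25.4 FPKM or under 1 FPKM in every mouse, and mice of both kinds occurred at each age. Mrpl36, also with a bacterial relative, had 0.105, 0, 0.202, 5.72 and 0.414 FPKM at 3 months, 0.0231, 0.594, 5.88, 9.09 and 2.35 FPKM at 12 months and 1.15, 0.00446, 0.163, 6.21 and 6.90 FPKM at 24 months. Mrpl50, a mitochondrion-specific protein, had 13.7, 2.11, 1.14, 2.32 and 12.9 FPKM at 3 months and 0.947, 0.168, 23.0, 10.5 and 8.82 FPKM at 12 months, but 8.59 to 12.3 FPKM in all 5 old mice. Its log2 fold change between 24 and 3 months, 1.13, was the largest positive one of the set, with mice that overlap. The listed 0 of Mrpl34 need not mean absence, since 3 other mice of that age had 19.1 to 25.4 FPKM.

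Further genes were split in this way, of which Mrpl41 and, for contrast, Mrpl13 were named after their values were seen. Mrps2, the relative of bacterial S2, had 1.68, 12.1, 1.43, 9.97 and 14.4 FPKM at 3 months, 1.21, 2.23, 1.28, 14.3 and 12.0 FPKM at 12 months and 12.9, 12.5, 10.6, 1.35 and 10.7 FPKM at 24 months. Mrpl41, a mitochondrion-specific protein, ran from 3.71 to 18.3 FPKM at 3 months, from 3.50 to 20.8 FPKM at 12 months and from 3.29 to 18.6 FPKM at 24 months. The low mice of Mrpl34 and Mrps2 were partly the same. Both were low in 12-month replicate 17 and 24-month replicate 34, only Mrpl34 in 3-month replicate 6, 12-month replicate 20 and 24-month replicate 33, and only Mrps2 in 3-month replicates 5 and 7 and 12-month replicates 18 and 19. Mrpl13, a large subunit protein of similar level, was by contrast between 13.6 and 19.8 FPKM in all 15 mice. The within-age SD of log2(FPKM + 1) was 2.02 for Mrpl34 and 0.143 for Mrpl13.

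**Figure D5:**
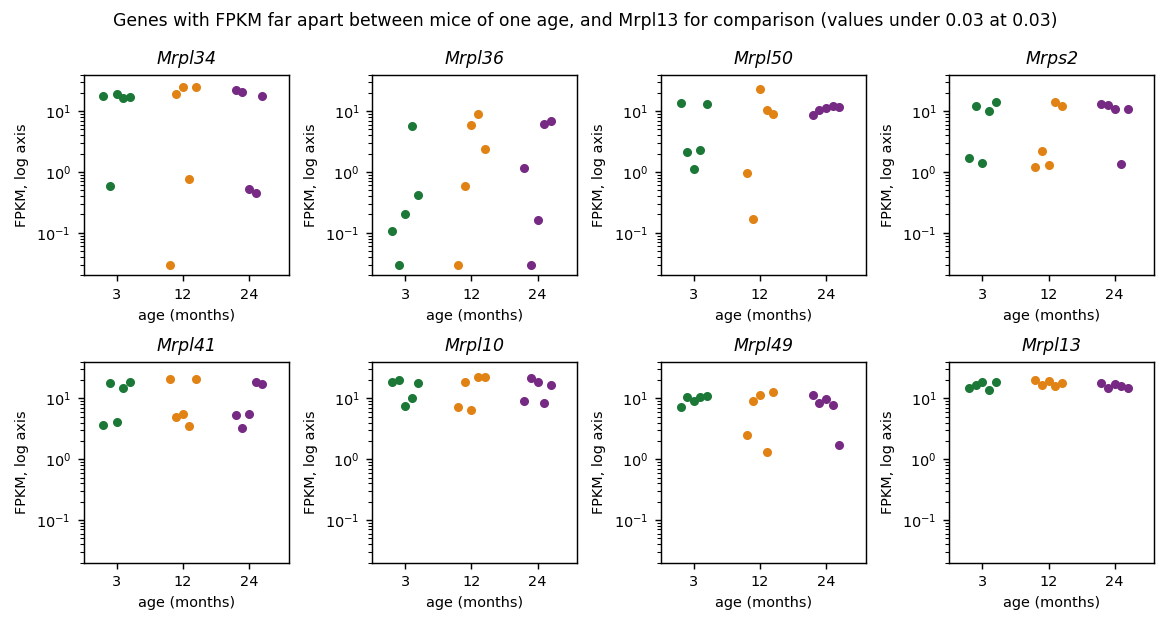
FPKM per mouse (log axis, values under 0.03 drawn at 0.03) at 3, 12 and 24 months for 7 genes whose mice are far apart within an age and for Mrpl13. Mrpl34 is split between values of 16.4 to 25.4 FPKM and values under 1 FPKM at each age, while Mrpl13 stays between 13.6 and 19.8 FPKM.

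Of 8 genes chosen for their role in the ribosome, Mrpl12 is described above with its values at 12 months. The related Mrps18a, Mrps18b and Mrps18c share an ancestor with bacterial S18 but occupy different places, Mrps18a in the large subunit despite its name. Mrps18a had 11.2 ± 2.31, 9.69 ± 1.25 and 10.1 ± 1.53 FPKM at 3, 12 and 24 months, Mrps18b 21.1 ± 3.72, 23.1 ± 1.41 and 22.1 ± 3.06 FPKM, and Mrps18c 9.74 ± 1.85, 10.3 ± 1.45 and 9.51 ± 1.47 FPKM. Mrps18b was the highest of these at each age, and Mrps18a and Mrps18c overlapped. Mrps30, another large subunit protein named Mrps, had 6.77 ± 1.02, 7.17 ± 1.74 and 5.65 ± 2.01 FPKM. Mrps12, which lies at the decoding centre, had 10.6 ± 1.79, 10.9 ± 1.31 and 9.95 ± 1.44 FPKM, and Mrps16, the relative of bacterial S16, 6.14 ± 1.03, 7.36 ± 1.49 and 6.32 ± 1.04 FPKM. Mrpl44, a protein of the ribonuclease III family, had 8.76 ± 1.07, 8.24 ± 1.69 and 9.39 ± 2.10 FPKM. For these 7 the limma p was above 0.05 in each comparison and the mice of the ages overlapped, while Mrpl12, the eighth, had an unadjusted limma p of 0.0252 between 12 and 3 months.

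Circular RNAs were listed for 8 of the genes, in 10 of the 11929 circular RNAs of the series. Exonic ones form when a downstream exon end is joined back to an upstream exon start. The circular RNA of Mrpl44 was listed as the intronic type (ciRNA), with estimated counts of only 2 to 16 per mouse. The estimated counts of all 10 were compared with edgeR. Between 24 and 3 months 2 of the 10 were called, both higher, by edgeR and with DESeq2 alike, against 13.3% of 11924 tested by edgeR in either direction. At an unadjusted p under 0.05 by edgeR 4 of 10 were higher, those of Mrps9 and Mrpl44 and both of Mrpl1, against 28.8% of all tested in either direction. The sequences across the back-splice junction of these 2 and of the circle of Mrps35, the second most abundant, are shown, 20 bases on each side from the GENCODE M21 transcripts on GRCm38, with the 5 bases on each side of the junction in capitals.
Mrps9 circle, chr1:42862469-42899549, plus strand: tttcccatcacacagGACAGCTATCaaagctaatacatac
Mrpl1 circle, chr5:96223771-96238945, plus strand: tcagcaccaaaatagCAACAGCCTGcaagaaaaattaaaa
Mrps35 circle, chr6:147048134-147061492, plus strand: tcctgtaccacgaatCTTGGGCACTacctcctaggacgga
The Mrps9 circle joins exon 9 back to exon 2 of 11 and spans 776 bases of exon, the Mrpl1 circle joins exon 8 back to exon 4 of 10 (637 bases), and the Mrps35 circle joins exon 7 back to exon 3 of 8 (549 bases).

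The Mrps9 circle was the most abundant, with estimated counts of 1706, 1496, 1506, 1592 and 1294 at 3 months, 2087, 1977, 2140, 1493 and 1912 at 12 months and 2179, 1751, 1953, 2238 and 2127 at 24 months. These counts are not scaled to the size of the library, and the young libraries were among the smaller ones. As CPM, counts scaled to library size with TMM factors over all 15 mice, the values were 178.6 to 222.8 in young and 228.9 to 244.3 in old mice, which do not overlap either. The log2 fold change between them was 0.27 (edgeR adjusted p = 0.0327), beside 0.36 for the FPKM of the gene and −0.19 for its coding transcript. The circle of Mrpl1, a large subunit protein with a bacterial relative, had 359.8, 306.5, 258.7, 285.2 and 203.7 at 3 months, 366.1, 310.4, 517.5, 297.7 and 420.3 at 12 months and 498.3, 303.4, 447.5, 458.6 and 509.6 at 24 months. There 1 old mouse lay inside the young range, also as CPM (28.15 to 47.02 in young and 39.62 to 58.38 in old mice), and the log2 fold change was 0.49 (edgeR adjusted p = 0.0363), while the gene itself had a difference of 0.11 (SE 0.21, limma adjusted p = 0.831). The circle of Mrps35, a mitochondrion-specific small subunit protein, had 670 ± 93.7, 760 ± 131 and 749 ± 102 and a log2 fold change of −0.003. Both calls were near the threshold: 0 of the 10 were called without 3-month replicate 7, 8 or 9 or 24-month replicate 31, 33, 34 or 35, and 3 were called without 3-month replicate 6 or 24-month replicate 32. Between 12 and 3 months edgeR and DESeq2 each called 0 of 10 against 6.63%, with 0 at an unadjusted p under 0.05 by edgeR (23.7% of all) and 1 by DESeq2, and without 3-month replicate 9 edgeR called 1. Between 24 and 12 months both called 0 against 0.738%, and at an unadjusted p under 0.05 edgeR gave 1, of Mrpl44 (16.9% of all), and DESeq2 gave 2. The listed FPKM of the circular RNA was above the mean FPKM of its gene in 7 of the 10, 60.5 against 11.9 FPKM for Mrps9. How these values were estimated is not given in the sources used here, and they may include reads of the linear transcripts of the gene. Whether a circle exceeds its linear RNA, or changes apart from it, therefore cannot be told from these values.

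The rest of the pathway was followed with fixed lists. The mitochondrial translation factors carry the ribosome through initiation, elongation and recycling. Between 24 and 3 months 3 of 13 were higher and 0 lower at an unadjusted p under 0.05, with a median log2 fold change of 0.169, and 1 was called. Of all genes with a mean of at least 1 FPKM, 12.4% were higher and 6.35% lower at this threshold with a median of 0.051, and 1.0% of all genes tested were called higher. It was Gfm2, which acts in the recycling of the ribosome, with 14.1, 13.4, 14.9, 14.3 and 14.97 FPKM at 3 months, 16.3, 16.9, 19.8, 16.5 and 17.9 FPKM at 12 months and 20.6, 16.5, 20.8, 19.8 and 18.6 FPKM at 24 months. All old mice were above all young mice (log2 fold change 0.40, SE 0.07, limma adjusted p = 0.0346). Of the genes for assembly of the mitoribosome and modification of its RNA, 4 of 29 (13.8%) were higher and 0 lower, near the share of all genes, with a median of 0.094, and 1 was called. This was Gtpbp10, a GTPase of large subunit assembly, with 5.42, 5.72, 7.07, 5.86 and 4.65 FPKM at 3 months, 8.37, 7.66, 8.81, 7.45 and 6.35 FPKM at 12 months and 8.48, 8.19, 9.66, 9.19 and 8.75 FPKM at 24 months (log2 fold change 0.55, SE 0.09, limma adjusted p = 0.0321). Its old mice, too, were all above the young ones. Both calls were near the threshold. With 1 mouse left out, Gfm2 was called in 1 of 10 fits, that without 24-month replicate 32, with limma adjusted p from 0.016 to 0.0799. Gtpbp10 was called in 2 of 10, those without 3-month replicate 7 or 24-month replicate 32, with limma adjusted p from 0.0341 to 0.0754. The log2 fold changes in these fits ran from 0.372 to 0.451 for Gfm2 and from 0.493 to 0.622 for Gtpbp10.

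In mitochondrial transcription and RNA handling 5 of 16 genes were higher and 0 lower at 24 months at an unadjusted p under 0.05, against 12.4% and 6.35% of genes with a mean of at least 1 FPKM, with a median of 0.178 and 0 called by limma. Tfam, which packs the mitochondrial genome and starts its transcription, had 5.16, 4.75, 4.92, 4.59 and 5.31 FPKM at 3 months, 6.75, 5.99, 6.25, 6.00 and 6.79 FPKM at 12 months and 6.41, 5.96, 5.78, 7.14 and 6.77 FPKM at 24 months. No older mouse overlapped the young mice, and the log2 fold change was 0.32 (SE 0.07, limma adjusted p = 0.0712). Polrmt, the mitochondrial RNA polymerase, had 9.08 ± 1.36, 10.4 ± 1.14 and 9.12 ± 1.22 FPKM. Among the nuclear regulators 1 of 10 was higher and 0 lower, Ppargc1b with a difference of 0.38 (SE 0.15, limma adjusted p = 0.263). The regulators Ppargc1a, Nrf1 and Gabpa, of which NRF1 and GABPA, a factor of the ETS family, bind motifs given with the promoters, had differences of −0.01, 0.15 and −0.07. Of the genes that load mitochondrial transfer RNAs with amino acids, 0 of 20 were higher and 1 lower, Cars2 at −0.19. Of the 5 subunits outside the name rule 0 were higher or lower, Dap3 at 0.15 and Chchd1 at −0.15. The elongation factor Tufm, the most abundant of those named here, had 40.8 ± 5.34, 43.6 ± 6.05 and 41.8 ± 2.94 FPKM.

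The respiratory chain and ATP synthase, whose mitochondrially encoded subunits the mitoribosome makes, gave 1 higher and 8 lower of 75 nuclear genes between 24 and 3 months at an unadjusted p under 0.05, 0 of them called by limma, with a median of −0.062. These are 1.33% and 10.7%, against 12.4% and 6.35% of genes with a mean of at least 1 FPKM. The 2 sets are not of like level, since the median of the mean levels was 44.9 FPKM for the 75 genes and 5.93 FPKM for the others. The higher one was Atp5l, an ATP synthase subunit, with 2.41 to 86.6 FPKM at 3 months and 78.1 to 113 FPKM at 24 months. The smallest p was that of Ndufa10, a complex I subunit, with 48.2 ± 3.303 FPKM at 3 months and 38.7 ± 3.85 FPKM at 24 months (limma log2 fold change −0.31, SE 0.08, adjusted p = 0.111). Between 12 and 3 months 8 (10.7%) were higher and 0 lower with a median of 0.129, against 13.6% and 4.86% of genes with a mean of at least 1 FPKM. Between 24 and 12 months 0 were higher and 13 (17.3%) lower with a median of −0.147, against 3.50% and 4.97%. The mitochondrial ribosomal protein genes gave 5 and 3, 7 and 1, and 1 and 3 of 78 in the same comparisons, with medians of 0.041, 0.120 and −0.079. The difference between the lists was not tested.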

How the data were processed

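Kidney libraries of 15 mice were grouped by the age label. Per the study's methods the authors used Cutadapt for trimming, Bowtie2 and HISAT2 for mapping (GRCm38, Ensembl annotation) and StringTie for assembly, whereas the submitters' processing notes name TopHat, TopHat2 and StringTie, without versions. The authors deposited FPKM and mean coverage per transcript, and estimated counts and FPKM per circular RNA. FPKM divides by each library's own total, so abundant transcripts can shift all others. The ratio of coverage to FPKM gave the aligned bases of a library. StringTie derives FPKM from estimated coverage and no read numbers were used for genes, so precision rests on the spread between mice, which may be partly technical.

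Gene values summed FPKM over class codes =, c, j and o. Genes above 0 in at least 1 mouse compared were tested with limma 3.58.1 (trend) on log2(FPKM + 1) in R 4.3.3, with Benjamini-Hochberg adjustment over all genes tested. Circular RNA counts were rounded and tested with edgeR 4.0.16 (quasi-likelihood, TMM, above 0 in at least 5 of 10 mice), and alternatively with DESeq2 1.42.0. For single values a two-sided exact permutation test over 252 splits was used, whose smallest p is 0.0079. Any comparison whose mice do not overlap gives that p, so it adds nothing to the lack of overlap. The scripts were tested on simulated data. Transcript types and exons came from GENCODE M21.

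Named genes were the 5 highest and 3 lowest by level, the 4 smallest p per direction and comparison, genes chosen by role, those with the lowest coding share or largest spread, the smallest p per pathway list and the most abundant or called circular RNAs. The genes and lists were chosen with earlier results of these data known. Ict1 is listed under the symbol Mrpl58 and so counted once. The alternatives are given below.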

Additional observations from a re-analysis of the deposited data

Results flagged for a closer look

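In 8 of 93 groups of 5 mice tested, 1 mouse was separated from the other 4 by a gap above Dixon's 95% critical value for the group's range, where chance alone flags about 1 in 20 groups. The groups were those of the named genes and of the summed level, and some of these genes were named for their spread between mice, so the count is no test against that rate. Mrpl32 had 9.95 FPKM in 12-month replicate 19 and 2.37 to 4.56 FPKM in the others of that age. Mrpl34 had 0.595 FPKM in 3-month replicate 6 against 16.4 to 18.98 FPKM. Mrpl35 had 4.36 FPKM in 3-month replicate 5 against 0.865 to 1.78 FPKM, and 3.83 FPKM in 24-month replicate 32 against 1.24 to 1.52 FPKM. Mrpl36 had 5.72 FPKM in 3-month replicate 8 against 0 to 0.414 FPKM. In 24-month replicate 34, Mrpl38 had 6.66 FPKM against 9.45 to 10.1 FPKM and Mrps2 had 1.35 FPKM against 10.6 to 12.9 FPKM. Mrps26 had 0.787 FPKM in 3-month replicate 9 against 1.51 to 1.75 FPKM.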

How the results depend on the processing

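Of 1706 values of named genes under alternatives, 1610 kept their side of an unadjusted p of 0.05, 65 were no longer past it and 26 newly were. The other 5 changed sign with an unadjusted p under 0.05 in the main setting or the alternative. Where neither p was under 0.05 the sign was not compared, so changes of sign among such values are counted as kept. Of 372 summary values 336 stayed within their limits (counts within 1.5 times) and 36 moved. Between 24 and 3 months the 5 genes higher at an unadjusted p under 0.05 were 2 with each mouse median-centred, 1 with coding transcripts only and 2 to 7 with 1 mouse left out. Mrps9 had a difference of −0.191 with coding transcripts only. Between 12 and 3 months the 7 higher were 4 median-centred and 4 to 10 with 1 mouse left out, and the median of 0.120 was 0.039 median-centred. The 0 genes called lower were 1, Mrps6, with a minimum mean of 1 FPKM, with all 15 mice in 1 fit and at an unadjusted p under 0.05 with an absolute log2 fold change above 1, and 0 to 1 with 1 mouse left out. The 1 lower at an unadjusted p under 0.05 was 0 with annotated or coding transcripts only, among genes with every coding transcript listed and among genes with a within-age SD under 0.5. Between 24 and 12 months the 3 lower were 1 with TPM, 5 with all 15 mice and 1 to 8 with 1 mouse left out. The 1 higher, Mrps6, was 0 in its sum with Slc5a3 and in both reduced sets, 1 to 2 with 1 mouse left out, and 1 at those limits of p and fold change in place of 0 called. With its annotated transcript only, Mrps6 had differences of 0.004 (24 against 3 months), 0.047 (12 against 3) and −0.042 (24 against 12), and −0.108 between 24 and 12 months in its sum with Slc5a3. The circular RNAs called were 0 to 3 between 24 and 3 months and 0 to 1 between 12 and 3 months with 1 mouse left out. The median of all genes with a mean of at least 1 FPKM over the 15 mice was 0.053, 0.077 and −0.025 in the 3 comparisons, 0.088, 0.043 and 0.045 with TPM, under which the median of the mitochondrial ribosomal protein genes was 0.074, 0.081 and −0.024. The cause of these moves was not tested, except that the sets of fewer genes or transcripts leave some out. Coding transcripts, the sum with Slc5a3, the reduced sets and the transcript-level test were chosen after seeing the data. No paired analysis was possible because the ages share no replicate numbers.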
